A study of Mus musculus with 6 samples.

Results

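The 10 genes described here set the activity of the kinases that open the cell cycle: the CDK inhibitors Cdkn1a, Cdkn1b, Cdkn1c, Cdkn2c and Cdkn2d, the D cyclins Ccnd1, Ccnd2 and Ccnd3, and the kinases Cdk4 and Cdk6. They were taken by symbol from a table of 55487 mouse genes, each symbol matching 1 gene, and all 10 were among the 18766 genes tested. RNA was measured in 6 libraries from mouse bone marrow, labelled cKit+ after the receptor that stem, progenitor and mast cells carry. A lentivirus overexpressing wild type MLLT3 was given to the cells of 3 libraries (WT), and one carrying MLLT3 with K63E and K67E to those of the other 3 (DM). MLLT3 is a reader of acylated histones and a subunit of transcription elongation complexes. After sorting, both groups grew for 8 days in methylcellulose, where 4-hydroxytamoxifen at 200 nM was used to delete endogenous Mllt3 in both groups. The promoter of the vector and the driver of the deletion are not given in the sources used here. The medium held Flt3L at 10 ng/mL, and further cytokines, among them SCF, GM-CSF and IL-3, at 20 ng/mL each, with gentamycin at 50 µg/mL. The labels do not say whether the 3 libraries of a group came from separate mice or cultures, so the p-values measure only the spread between these libraries.

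A cell in G1 makes D cyclins when growth factors signal to it. They bind Cdk4 or Cdk6, and the complex phosphorylates the retinoblastoma protein, which then lets go of the E2F factors that switch on the genes of S phase. Inhibitors of the INK4 family, such as the products of Cdkn2c (p18) and Cdkn2d (p19), bind Cdk4 and Cdk6 alone. Those of the CIP/KIP family, from Cdkn1a (p21), Cdkn1b (p27) and Cdkn1c (p57), block Cdk2 complexes and also bind D cyclin complexes. In blood cells Ccnd2, Ccnd3 and Cdk6 are known as the main D cyclins and kinase, Cdkn1c as an inhibitor that keeps stem cells quiescent, and Cdkn1a as a target of p53 that also rises as monocytes mature.

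Values are regularized logs (rlog) on the log2 scale, normalized for library size by the authors, and a difference of 1 is a 2-fold change. The depth of the libraries is unknown. A gene is called when its adjusted p from limma, with Benjamini-Hochberg adjustment over all tested genes, is under 0.05. By that rule 13.9% of the tested genes were called, 9.2% of them higher and 4.71% lower in DM as shares of all tested genes. Mllt3, which the vector supplied and which was targeted for deletion, ran from 12.44 to 12.87 in WT and from 11.99 to 12.44 in DM (difference -0.48, SE 0.137, limma adjusted p 0.0448). It lost the call in 6 of 12 alternative fits, and its values do not separate vector from native transcripts or measure the extent of the deletion. Kit lay between 14.29 and 14.9 in all 6 libraries, without a call (difference 0.2, limma adjusted p 0.368). Summed values of neutrophil genes (17.32 to 19.07 over the 6 libraries), monocyte and macrophage genes (18.33 to 19.66) and mast cell and basophil genes (18.86 to 19.36) were above that of stem and progenitor genes (15.65 to 16.15). The lists differ in size, and each sum is set mainly by its most abundant genes, so the sums do not rank cell numbers. In bulk samples, fewer cells of a type and less RNA per cell cannot be told apart.

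Among the members, 3 rose in DM and 1 fell, beside 9.2% called higher and 4.71% called lower over all tested genes. The other 6 were not called (5 members had an unadjusted p under 0.05). Ccnd1 rose the most, by 0.61, followed by Cdkn1c with 0.54 and Cdkn1a with 0.38, while Cdkn2d fell by 0.37. Of the inhibitors, 2 of the 3 CIP/KIP genes were higher, and 1 of the 2 INK4 genes was lower. The median difference over the 10 members was 0.04, beside 0.01 over all tested genes, with 5 members having a higher and 5 a lower mean in DM. WT and DM libraries did not overlap for 5 members, beside 35.8% of all tested genes. All of these changes were under 2-fold.

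**Figure D1:**
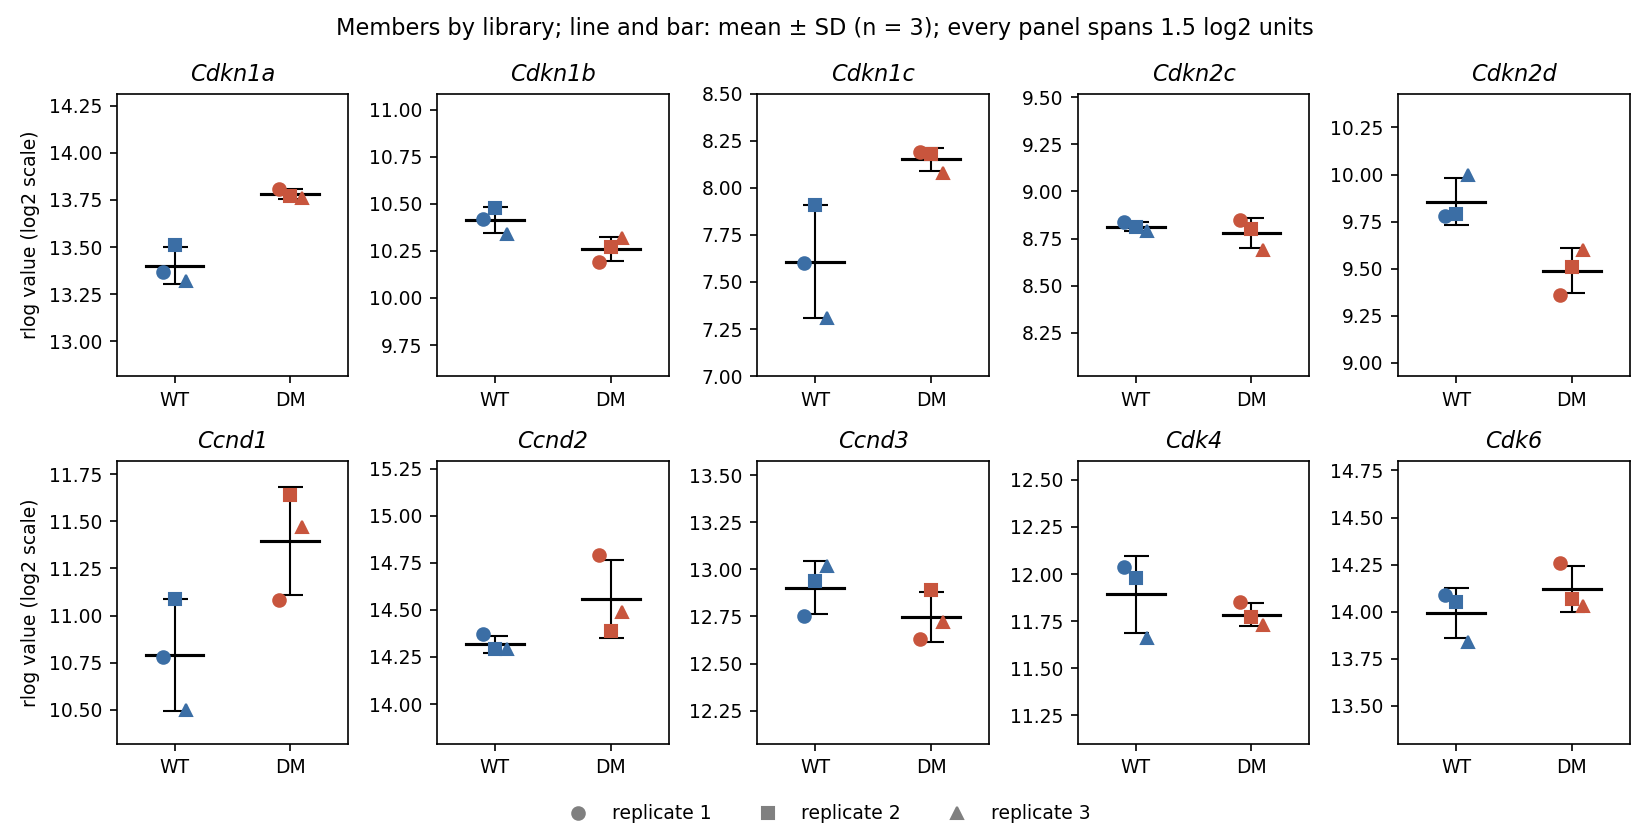
Values of the 10 members in each library. The y axis is the rlog value on the log2 scale, each panel spans 1.5 units around its own centre, points are libraries with the shape giving the replicate, and lines with bars are mean ± SD (n = 3). Cdkn1a, Cdkn1c and Cdkn2d are separated between WT and DM, while a DM library of Ccnd1 at 11.08 meets a WT library at 11.09.

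Promoter windows were looked up in RefSeq (GRCm38.p6) for 300 bases around each annotated start, and 10 windows of 7 members were found: Cdkn1a, Cdkn1b, Cdkn2c, Cdkn2d, Ccnd3, Cdk4 and Cdk6. A pair of these is shown because their letters name regulators whose own RNA was measured. Cdkn1a has an upstream start whose window holds ACATGT at -49 and again at -39 from that start. The paired half-sites of p53 elements are built on such letters, and this start lies 2790 bases before the other Cdkn1a start of the table. Of 32817 windows of that length in the table, 5.28% hold ACATGT and 4 hold a pair at this spacing. Cdk4 holds the E-box CACGTG, the core bound by Myc and related factors, at -172, -118, -98 and -11. An E-box stands in 7.15% of all windows and in 9.33% of those of tested genes, and 8 windows hold 4 or more. ACATGT, its spacing and the number of E-boxes were set after the windows were seen, so these low counts are no test. The bases before each start are printed 5′ to 3′ on the plus strand, with these matches in capitals, from chr17:29090729-29090973 for Cdkn1a and chr10:127063285-127063529 for Cdk4.
Cdkn1a: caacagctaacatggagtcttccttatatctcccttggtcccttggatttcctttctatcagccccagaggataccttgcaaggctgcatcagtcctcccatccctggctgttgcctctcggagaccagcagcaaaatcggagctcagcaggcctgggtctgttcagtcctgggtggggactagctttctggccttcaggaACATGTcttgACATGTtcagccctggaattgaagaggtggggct
Cdk4: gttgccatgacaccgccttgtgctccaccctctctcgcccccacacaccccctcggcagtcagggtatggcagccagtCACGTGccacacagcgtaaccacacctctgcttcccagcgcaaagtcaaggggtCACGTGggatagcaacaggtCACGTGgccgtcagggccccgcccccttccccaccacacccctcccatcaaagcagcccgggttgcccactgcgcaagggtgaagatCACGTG

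The E-box was also found in a window of Cdk6 and of Cdkn2c. The E2F-like TTTNNCGC, in 5.16% of all windows and 7.59% of those of tested genes, was found once, in Cdk6 (-198). TTTGAA, the core of the cell cycle homology region, was in 17.9% of all windows and 12.7% of those of tested genes. It was in none of the members' 10. These are matches of letters on either strand, with no measure of binding. Trp53, the gene of p53, had values from 10.78 to 10.92 in WT and from 10.83 to 10.93 in DM (difference 0.04, limma adjusted p 0.738). Myc ran from 11.68 to 12.03 in WT and from 11.79 to 11.84 in DM (difference -0.08, limma adjusted p 0.6). Neither gene was called.

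Cdkn1a (ENSMUSG00000023067.14; chromosome 17, 29090976 to 29100727, plus strand) encodes p21, the inhibitor that p53 induces to stop the cycle. Its rlog values, given for replicates 1, 2 and 3 in that order here and below, were 13.37, 13.51 and 13.32 for WT, against 13.81, 13.77 and 13.76 for DM. Every DM library was above every WT library, and the DM values were close together. The mean went from 13.4 ± 0.0946 (SD, n = 3) to 13.78 ± 0.0254, a difference of 0.38 (SE 0.0771, limma adjusted p 0.012), or 1.3-fold. Larger absolute differences were seen for 8.1% of tested genes. The difference was 0.19 after quantile normalization (limma adjusted p 0.0367), and the call was missed without WT replicate 1 (0.37, limma adjusted p 0.0598) and when DM replicate 2 was dropped (0.38, 0.0507).

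Cdkn1c (ENSMUSG00000037664.13; chromosome 7, 143458339 to 143461050, minus strand) encodes p57 and is an imprinted gene expressed from the maternal allele. It read 7.6, 7.91 and 7.31 in WT, against 8.19, 8.18 and 8.08 in DM. All DM libraries were higher, and the WT libraries were spread more widely than the DM libraries. The mean rose from 7.61 ± 0.3 (SD, n = 3) to 8.15 ± 0.062, a difference of 0.54 (SE 0.129, limma adjusted p 0.0221) or 1.46-fold, and 3.6% of tested genes differed by more. Leaving out WT replicate 1 gave 0.54 (limma adjusted p 0.0652). Without DM replicate 1, 2 or 3 it was 0.52, 0.53 and 0.58 (limma adjusted p 0.0545, 0.0692 and 0.0524), so each of these 4 libraries was needed for the call.

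Cdkn1b (ENSMUSG00000003031.14; chromosome 6, 134920401 to 134925513, plus strand), the gene of p27, which holds resting cells in G1, did not share that direction. Its values were 10.42, 10.48 and 10.34 in WT, against 10.19, 10.27 and 10.32 in DM. The DM libraries were all lower, but by little: WT replicate 3 and DM replicate 3 differed by less than the SD within either group. The difference was -0.15 (SE 0.0696, 95% interval -0.31 to 0, limma adjusted p 0.175). After quantile normalization it was -0.23 and was called (limma adjusted p 0.0223).

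Within a single library, the difference between Cdkn1a and Cdkn1b does not depend on a scaling factor of the library. It was 2.95, 3.03 and 2.98 in WT, against 3.62, 3.5 and 3.44 in DM. The balance of the pair thus lay 0.53 further toward Cdkn1a in DM, with no overlap between the groups. Cdkn1c minus Cdkn1b went from -2.81 ± 0.23 (SD, n = 3) to -2.11 ± 0.125, also without overlap. These pairs were set side by side after their values were seen, and no test was made on them.

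**Figure D2:**
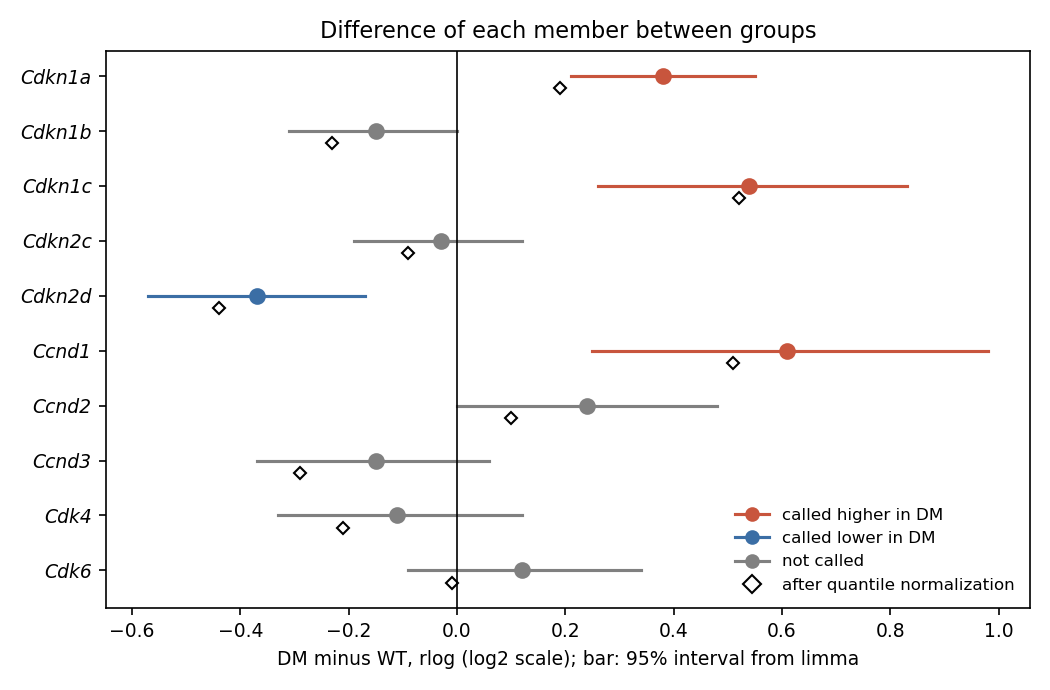
Difference between groups for each member. The x axis is DM minus WT in rlog units (log2 scale), circles with bars are the limma estimate with its 95% interval (n = 3 per group), and diamonds are the estimate after quantile normalization. The intervals of Cdkn1a (0.21 to 0.55), Cdkn1c (0.26 to 0.83) and Ccnd1 (0.25 to 0.98) lie above 0 and that of Cdkn2d (-0.57 to -0.17) below it, and the diamond of Cdk6 sits at -0.01.

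The INK4 genes were Cdkn2c and Cdkn2d. Cdkn2d (ENSMUSG00000096472.2; chromosome 9, 21288410 to 21291407, minus strand) had values of 9.78, 9.79 and 10 in WT, against 9.36, 9.51 and 9.6 in DM. Each DM library was below each WT library. The mean fell from 9.86 ± 0.126 (SD, n = 3) to 9.49 ± 0.124, a difference of -0.37 (SE 0.0885, limma adjusted p 0.023), so that WT was 1.29-fold above DM. A share of 8.58% of tested genes differed by more. Dropping WT replicate 3 (-0.3, limma adjusted p 0.051), DM replicate 1 (-0.3, 0.0761) or DM replicate 2 (-0.38, 0.0679) ended the call, which was kept after quantile normalization (-0.44, 0.0229).

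Cdkn2c (ENSMUSG00000028551.14; chromosome 4, 109660876 to 109667189, minus strand), whose loss in mice enlarges the stem cell pool, was not called. It read 8.84, 8.81 and 8.79 in WT, against 8.85, 8.8 and 8.69 in DM, so the groups overlapped. The difference was -0.03 with a 95% interval from -0.19 to 0.12 (limma adjusted p 0.772), and its sign turned without DM replicate 3 (0.01). A change as large as that of Cdkn2d therefore lay outside the interval of Cdkn2c. Cdkn2c minus Cdkn2d was -0.94, -0.99 and -1.21 in WT, against -0.51, -0.71 and -0.91 in DM, a shift of 0.33 with no overlap.

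Of the D cyclins, the 1 called was Ccnd1 (ENSMUSG00000070348.5; chromosome 7, 144929931 to 144939925, minus strand), the cyclin best known from epithelial and mesenchymal cells. Its values were 10.78, 11.09 and 10.5 in WT, against 11.08, 11.64 and 11.47 in DM. DM replicate 1 met the highest WT library, while the other DM libraries were above all of WT. The mean rose from 10.79 ± 0.296 (SD, n = 3) to 11.4 ± 0.289, a difference of 0.61 (SE 0.164, limma adjusted p 0.0347) or 1.53-fold, which 2.61% of tested genes surpassed. This call was lost in 5 of 12 alternative fits, the most among the 4 called members. Dropping WT replicate 1 (0.61, limma adjusted p 0.0941), WT replicate 3 (0.47, 0.0806), DM replicate 2 (0.49, 0.123) or DM replicate 3 (0.58, 0.115) ended it. After quantile normalization it was 0.51 (limma adjusted p 0.0514), which also missed the threshold.

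Ccnd2 (ENSMUSG00000000184.12; chromosome 6, 127125162 to 127152193, minus strand), which cytokines induce in blood progenitors, read 14.37, 14.29 and 14.29 in WT, against 14.79, 14.39 and 14.49 in DM. The DM libraries were all higher, but DM replicate 1 stood well above the other two. The difference of 0.24 (SE 0.107, 95% interval 0 to 0.48, limma adjusted p 0.172) was not called, and it was 0.12 without DM replicate 1 and 0.1 after quantile normalization. Ccnd3 (ENSMUSG00000034165.16; chromosome 17, 47505051 to 47599691, plus strand), the D cyclin that maturing red cells and lymphocytes rely on, had values of 12.75, 12.94 and 13.02 in WT, against 12.63, 12.89 and 12.72 in DM. Its groups overlapped, and the difference of -0.15 (SE 0.0966, 95% interval -0.37 to 0.06, limma adjusted p 0.312) was not called.

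To compare levels between the D cyclins, the values were taken back to the linear scale and divided by the length of each gene's annotated exons (GENCODE M21). On this scale Ccnd2 made up most of the summed D cyclin signal in every library: 66.1%, 61.1% and 63% in WT, against 71.8%, 59.7% and 64.1% in DM. Its share did not separate the groups. Ccnd3 held 23%, 25.7% and 27.9% in WT, against 17.2%, 22.6% and 20.2% in DM, so that all DM libraries were lower, by 5.55 percentage points on average. Without division by length the Ccnd3 shares overlapped, since DM replicate 2 (23.5%) was above WT replicate 1 (23.1%). Ccnd1 held 11%, 13.2% and 9.05% in WT, against 11%, 17.7% and 15.8% in DM, with overlap at DM replicate 1. Within libraries, Ccnd1 minus Ccnd3 went from -1.97, -1.86 and -2.52 in WT to -1.55, -1.25 and -1.25 in DM, a shift of 0.77 without overlap, while Ccnd1 minus Ccnd2 overlapped (shift 0.37). Ccnd2 minus Ccnd3 overlapped too, at 1.62, 1.35 and 1.27 in WT, against 2.16, 1.5 and 1.77 in DM (shift 0.4). The lengths are those of all annotated exons together, which any single transcript uses in part. They are 9409 bases from 8 transcripts for Ccnd2, 8775 from 21 for Ccnd3 and 4709 from 3 for Ccnd1. Which transcripts were present was not measured, so the shares are approximate. Their order between the cyclins depends on these lengths.

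**Figure D3:**
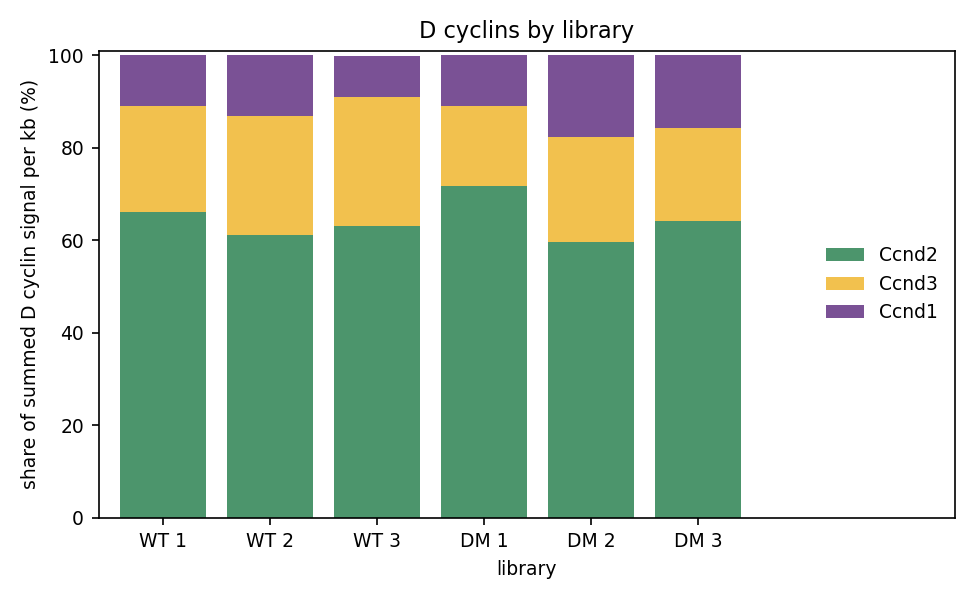
Share of each D cyclin in the summed D cyclin signal by library. Bars stack the 3 shares in percent after division by exon length, on linear values taken back from rlog, with no error since each bar is 1 library. Ccnd2 holds between 59.7% and 71.8% in all 6 libraries, and the Ccnd3 segment is 23% or more in WT and 22.6% or less in DM, a separation that is not seen without division by length.

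Neither kinase was called. Cdk4 (ENSMUSG00000006728.12; chromosome 10, 127063534 to 127067920, plus strand) read 12.04, 11.98 and 11.66 in WT, against 11.85, 11.77 and 11.73 in DM. Its DM values all lay within the range of WT (difference -0.11, SE 0.101, 95% interval -0.33 to 0.12, limma adjusted p 0.498). Cdk6 (ENSMUSG00000040274.11; chromosome 5, 3341485 to 3531008, plus strand), the kinase that haematopoietic progenitors depend on, read 14.09, 14.05 and 13.84 in WT, against 14.26, 14.07 and 14.03 in DM. Those groups overlapped as well (difference 0.12, SE 0.0969, 95% interval -0.09 to 0.34, limma adjusted p 0.415), and the sign of Cdk6 turned after quantile normalization (-0.01). The pair compared within libraries was more regular: Cdk6 minus Cdk4 was 2.05, 2.06 and 2.19 in WT, against 2.4, 2.31 and 2.29 in DM, a shift of 0.23 with no overlap. Per kilobase of all annotated exons, Cdk6 (10.04 to 10.45) and Cdk4 (9.96 to 10.34) had similar values. These exons sum to 13989 bases for Cdk6 and 3249 for Cdk4. Any single transcript uses them in part, so this comparison of levels is approximate.

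**Figure D4:**
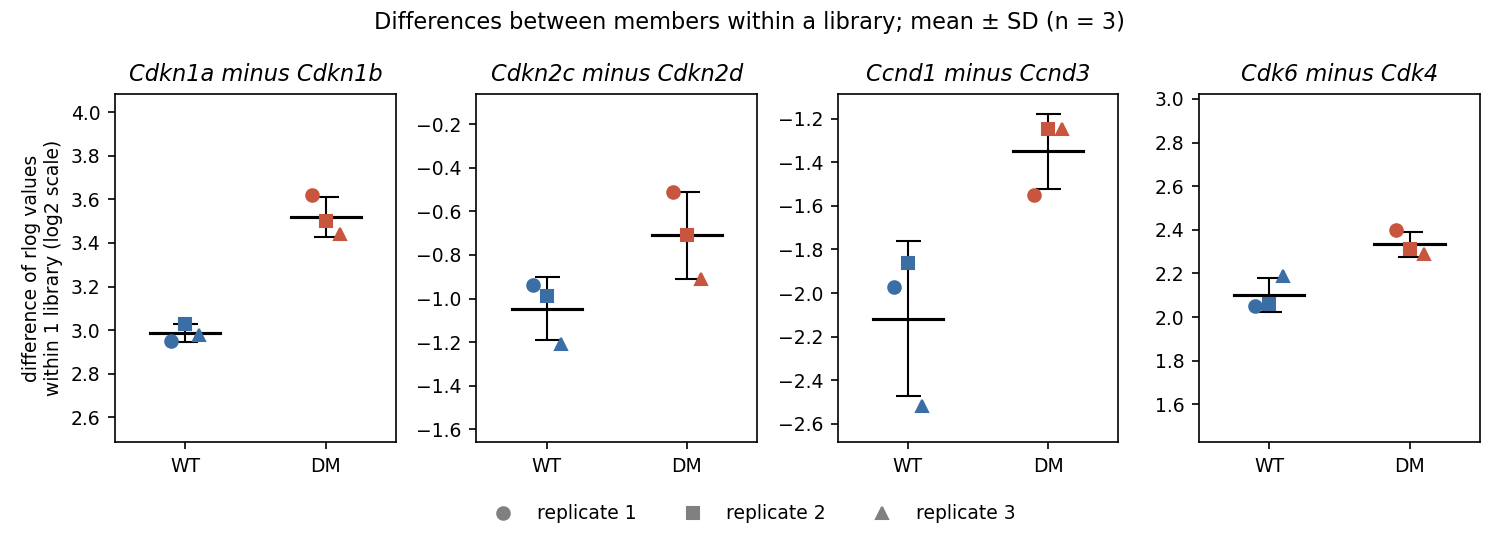
Differences between 2 members within each library. The y axis is the difference of rlog values (log2 scale), points are libraries with the shape giving the replicate, and lines with bars are mean ± SD (n = 3). The 4 pairs were chosen from 8 after their values were seen, and in these panels the WT and DM libraries do not overlap, whereas they overlap for Ccnd1 minus Ccnd2 and Ccnd2 minus Ccnd3, with shifts of 0.53 for Cdkn1a minus Cdkn1b, 0.33 for Cdkn2c minus Cdkn2d, 0.77 for Ccnd1 minus Ccnd3 and 0.23 for Cdk6 minus Cdk4.

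On the log2 scale per kilobase of exon, and averaged over the 6 libraries, Cdkn1a (11.76) and Ccnd2 (11.21) had the highest levels of the 10 members. Cdk6, Cdk4 and Ccnd3 followed at 10.25, 10.14 and 9.69, then Cdkn2d at 9.02, Ccnd1 at 8.86 and Cdkn1b at 8.15. Cdkn2c (7.37) and Cdkn1c (6.85) were lowest. These levels also rest on the length of all annotated exons together, so this order and the comparisons of levels that follow are approximate. The ranges over libraries overlapped for the neighbours Ccnd2 and Cdkn1a, Cdk6 and Cdk4, Cdkn2d and Ccnd1, and Ccnd1 and Cdkn1b, while other neighbours did not overlap. Within libraries, Cdkn1a was above Ccnd2 and Ccnd1 above Cdkn1b in all 6. Cdkn2d was above Ccnd1 in the 3 WT libraries and below it in the 3 DM libraries, and Cdk6 was above Cdk4 in the 3 DM libraries and in WT replicate 3. The strand used in counting is not given in the sources used here, and 7 members overlap annotated genes on the opposite strand. Among these, Tspan31 opposite the end of Cdk4 had a difference of 0.24 (limma adjusted p 0.0492), and Gm17590 opposite Cdk6 had -0.27 (limma adjusted p 0.053). LTO1 opposite the end of Ccnd1 had 0.2 (limma adjusted p 0.0791), the direction of Ccnd1 itself. Bysl opposite the end of Ccnd3 had 0.12 (limma adjusted p 0.293). The reads of such pairs cannot be told apart.

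Downstream of the kinases, the list of pocket proteins, E2F factors and the MuvB complex had 18 tested genes. Of these 4 were called, all lower, beside 4.71% called lower over all tested genes, and the median difference was -0.07. Mybl2, which joins MuvB to switch on mitotic genes, fell from values between 10.13 and 10.44 to values between 9.56 and 9.71 (difference -0.71, SE 0.0914, limma adjusted p 0.00219). Tfdp1, the dimer partner of E2F, fell by 0.53 (SE 0.0698, limma adjusted p 0.00248). E2f2 fell by 0.46 (SE 0.109, limma adjusted p 0.0225), a call that ended when DM replicate 1 (-0.37, 0.0679) or DM replicate 3 (-0.49, 0.0531) was dropped. The retinoblastoma gene Rb1 was not called (0.17, limma adjusted p 0.149), nor was E2f1 (-0.03, 0.824). After quantile normalization 8 genes of the list were called lower and 1 higher.

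Of 11 tested cyclins, kinases and activators that act after Cdk4 and Cdk6, 6 were called, all lower. Over all tested genes 4.71% were called lower. The median difference of the list was -0.28. Mean values were lower in DM for 9 of the 11 and higher for Cdk7 (0.05) and Mnat1 (0.08), subunits of the kinase that activates other Cdks, neither of them called. Cdc25a, the phosphatase that activates Cdk2, fell by 0.65 (SE 0.0753, limma adjusted p 0.00128), and Ccna2 and Cdk1 each fell by 0.42 (limma adjusted p 0.0081 and 0.00896). The E cyclins, partners of Cdk2 at the start of S phase, were not called: Ccne1 differed by -0.15 (limma adjusted p 0.208) and Ccne2 by -0.24 (0.0882). In place of 6, 3 genes of the list were called when WT replicate 1, DM replicate 2 or DM replicate 3 was dropped. Among 20 proliferation genes 17 were called, all lower, beside 4.71% called lower over all tested genes, with a median of -0.44. The largest falls were those of Cdc20 (-0.66, limma adjusted p 0.00166), Plk1 (-0.61, 0.00159) and Aurka (-0.6, 0.004). Without DM replicate 3 or without WT replicate 1 there were 12, again all lower.

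Among the 11 genes that control the turnover of inhibitors and D cyclins, 2 were called higher and 1 lower, with a median of 0.1. Over all tested genes, 9.2% were called higher and 4.71% lower. Fbxw7, the ubiquitin ligase subunit that removes cyclin E, rose by 0.31 (SE 0.0753, limma adjusted p 0.0228), and Gsk3b, the kinase that marks cyclin D1 for export and decay, by 0.25 (SE 0.0722, 0.0495). Dtl, part of the ligase that degrades p21 in S phase, fell by 0.36 (SE 0.0848, limma adjusted p 0.0207), and Skp2, which targets p27, differed by -0.27 without a call (0.0662). No gene of the list was called without WT replicate 1, and 1 was called when any single DM library was dropped. Fbxw7 and Gsk3b were not called after quantile normalization (0.22, limma adjusted p 0.064, and 0.13, 0.121), nor was any gene of the list called higher there, where 2 were called lower.

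Of 14 transcription factors known to act on these genes, 1 was called higher and 2 lower, beside 9.2% and 4.71% of all tested genes. Klf4, a factor of monocytes that can induce Cdkn1a, read 10.06, 10.49 and 9.98 in WT, against 10.71, 11.26 and 10.92 in DM (difference 0.78, SE 0.156, limma adjusted p 0.0114). Cebpe, which drives the late steps of neutrophil maturation, fell by 1.74 (SE 0.139, limma adjusted p 0.000157), and Gfi1, a repressor needed for neutrophils, differed by -1.54 (SE 0.139, 0.000306). Cebpe and Gfi1 are counted again in the neutrophil list below. The forkhead genes, whose products induce Cdkn1b, were not called: Foxo1 differed by 0.25 (limma adjusted p 0.058), Foxo3 by 0.07 (0.557) and Foxo4 by 0.21 (0.0682). The median over the list was 0.08, and -0.04 after quantile normalization.

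**Figure D5:**
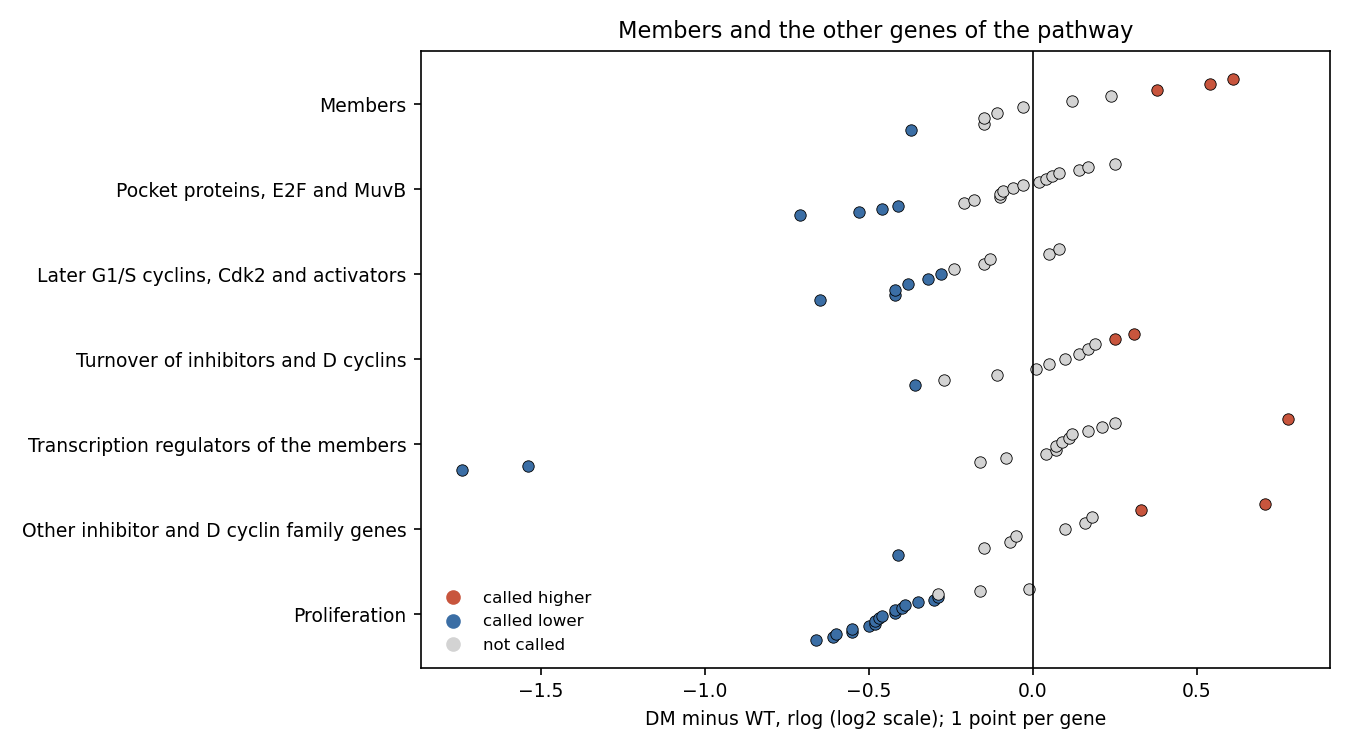
Difference between groups for the members and 6 lists of related genes. The x axis is DM minus WT in rlog units (log2 scale), each point is 1 gene, and colour gives the limma call. The members lie on both sides of 0, from -0.37 to 0.61. All 20 proliferation genes lie below 0 with 17 of them called, beside 4.71% called lower over all tested genes.

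Marker lists of other cell types are given beside these results, with 9.2% called higher and 4.71% called lower over all tested genes. Of 16 neutrophil genes 13 were called lower and none higher, and their summed value (log2 of the linear sum) was 18.63 to 19.07 in WT and 17.32 to 18.14 in DM. Of 14 monocyte and macrophage genes 11 were called higher and 2 lower, with a summed value of 18.33 to 19.01 in WT and 19.3 to 19.66 in DM. The 2 lower were Ly6c2 (-1.13, limma adjusted p 0.00361) and Ccr2 (-0.78, 0.00975), so the list did not move as one. Lyz2, with means of 17.9 in WT and 18.75 in DM, had the highest values of the list and weighs most in its sum. Eosinophil genes had 3 of 8 called lower (15.17 to 15.28 in WT, 13.97 to 14.43 in DM). In the other lists, calls were 2 higher and 1 lower of 12 stem and progenitor genes, 3 higher and 1 lower of 12 mast cell and basophil genes, and 2 higher of 9 megakaryocyte genes. There were also 1 higher and 2 lower of 8 lymphoid genes and 0 of 10 tested erythroid genes. Of the adult globin genes, Hbb-bt ran from 6.95 to 8.37 and Hbb-bs from 5.69 to 6.54 over the 6 libraries. Hba-a1 and Hba-a2, with means of -1.97 and 0.37, were below the filter and not tested. The value of Hba-a1 is the lowest in the data. How reads that match several genes were counted is not given in the sources used here.

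The order of the libraries was set side by side for a few members after their values were seen. Ccnd1 was highest in replicate 2 of each group, then in replicates 1 and 3 of WT and replicates 3 and 1 of DM. The summed monocyte and macrophage value had that order too, with 18.54, 19.01 and 18.33 in WT, against 19.3, 19.66 and 19.39 in DM. Cdkn2d was highest in replicate 3, then 2, then 1 of each group, and so was the summed neutrophil value, with 18.63, 18.94 and 19.07 in WT, against 17.32, 17.83 and 18.14 in DM. Ccnd2 was highest in replicate 1 of each group, as were Kit (14.58 in WT, 14.9 in DM) and the summed mast cell and basophil value (19.23 and 19.36). Cdkn1a and Cdkn1c were highest in replicate 2, then 1, then 3 of WT, the order of the monocyte and macrophage value. In DM they were highest in replicate 1, then 2, then 3, the order of neither that value nor the neutrophil value. Those DM libraries lay close together, with 13.81, 13.77 and 13.76 for Cdkn1a and 8.19, 8.18 and 8.08 for Cdkn1c. Ccnd3 had the neutrophil order in WT (12.75, 12.94 and 13.02) but the monocyte and macrophage order in DM (12.63, 12.89 and 12.72). Other members were left out of this comparison, and no test was made on the orders. The part of cell composition in the differences of the members was not tested.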

How the data were processed

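RNA-seq was deposited for 6 libraries, labelled WT and DM with 3 each, all in batch 1. Per the labels, libraries were made from total RNA after removal of abundant transcripts. Per the submitters' processing notes, the tools were cutadapt 2.6, STAR 2.7.3 and DESeq2 1.30.0 on mm10; counting tool, annotation and strand are not given in the sources used here. The authors deposited rlog values on the log2 scale, a reading taken from the table's name and its values, which shrink low genes and hold no depth.

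The 142699 lines were merged to 55487 genes, since identical lines repeated once per transcript. Those whose 6 values averaged 3 or more (18766) were fitted with limma 3.58.1 in R 4.3.3 (eBayes with a mean-variance trend, no covariates), with Benjamini-Hochberg adjustment over all of them. Annotation came from GENCODE M21 (GRCm38), which matched 54435 genes, and promoter windows from RefSeq. Motifs were searched on both strands. ACATGT, its spacing and the cut at 4 E-boxes were added after the windows were seen. Members, lists and tests were chosen with earlier results of these data known. Besides the 10 members, up to 3 called genes per list and direction are named by largest difference, with the 5 genes most correlated with the called member of largest difference among genes with a mean of at least 6; others were chosen after their values were seen. Data for DM against WT were also simulated over 18766 genes, 18566 of them unchanged. There the fit called 14% of 50 genes changed by 0.25, 68% at 0.5 and 92% at 1. The data had 2611 calls, and with more calls the adjusted threshold is less strict. These shares may thus be too low for the data, but small changes of single members can still be missed. Alternatives were no filter (genes at 0 throughout left out), a mean of at least 5, no trend, quantile normalization, median centring, a replicate block, and each library left out. Plots used matplotlib 3.10.9.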

Additional observations from a re-analysis of the deposited data

How the results depend on the processing

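Of 120 alternative fits of single members, 102 kept the direction and the side of the threshold, 14 lost a call, 2 gained one and 2 turned in sign. The sign turned for Cdkn2c without DM replicate 3 (0.01, and -0.07 to 0.01 with each library left out) and for Cdk6 after quantile normalization (-0.01), neither of them called. Members called higher numbered 0 to 3 and members called lower 0 to 1 with a library left out, and quantile normalization called 2 lower. Over all genes 2611 were called, and 1119 to 3475 with a library left out; 66.1% were higher, but 51.3% after quantile normalization. With a library left out, the list counts ran from 3 to 6 for later cyclins, 0 to 3 for turnover, 3 to 4 for pocket proteins and 3 to 4 for regulators. Quantile normalization called 9 pocket protein and E2F genes, leaving out the filter called 1 turnover gene, and leaving out the trend called 5 regulators. Without division by exon length, Ccnd2 held 68.3% of the D cyclin signal in WT and 71.4% in DM. Ccnd1 held 5.99% and 8.16%, and Ccnd3 25.7% and 20.5% with overlapping libraries. Exon lengths are 9409 bases for Ccnd2, 8775 for Ccnd3 and 4709 for Ccnd1.

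WT and DM share replicate numbers, and whether these pair the libraries is not known. Deviations from the group means correlated across genes at 0.49, 0.12 and 0.04 for numbers 1 to 3. Unlike numbers gave -0.34 to 0.12, and WT replicate 3 correlated best with DM replicate 2 (0.12). With the replicate block, Ccnd2 was called (0.24, limma adjusted p 0.0451) and 5 regulators were, and 3742 genes in all; no member lost a call.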

Other observations

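Outside the members, 9 genes of the same families were followed, of which 2 were called higher and 1 lower. Over all tested genes, 9.2% were called higher and 4.71% lower. The other INK4 genes, Cdkn2a and Cdkn2b were not called: Cdkn2a read 8.7, 8.53 and 8.84 in WT and 9.02, 8.74 and 8.78 in DM (difference 0.16, limma adjusted p 0.321), and Cdkn2b differed by -0.05 (0.75). The value of Cdkn2a does not separate its INK4 transcript from that of ARF. Cdk14 read 9.36, 9.69 and 9.36 in WT and 10.01, 10.31 and 10.23 in DM, a rise of 0.71 (SE 0.108, limma adjusted p 0.00461) called in all 12 alternatives. Its partner Ccny, cyclin Y, rose by 0.33 (SE 0.0787, limma adjusted p 0.0214), although not past the threshold without WT replicate 1 (0.35, 0.067), without DM replicate 1 (0.33, 0.0596) or without DM replicate 2 (0.3, 0.0967). Both Cdk14 and Ccny were above all WT libraries in every DM library, while 35.8% of all tested genes had groups without overlap. Cdkn3, a phosphatase of Cdk2 whose RNA is high in dividing cells, fell by 0.41 (SE 0.0733, limma adjusted p 0.008), and the median over the list was 0.1.

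The 5 genes whose values followed those of Ccnd1 most closely over the 6 libraries were Rnase4, Lrrc27, Lypla1, Serp1 and Ddx31. Rnase4, a secreted ribonuclease, had a Pearson correlation of 0.9994 with Ccnd1, and the fifth, Ddx31, had 0.9942. Of 11976 candidate genes, 1579 had a correlation above 0.9 with Ccnd1.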
